A study of Homo sapiens with 12 samples.

Results

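Genes of glycolysis, gluconeogenesis and the response to low oxygen were compared between parental and lenvatinib-resistant cells of 2 liver cancer lines. The set was given by symbol and held 37 genes, and the row carrying each symbol was taken from the table of each line. Rows were found for 32 of the 37 genes, out of 12365 symbols in either table. The Hep3B table had 21 of them among 8717 entries, and the Huh7 table had 27 among 7533 genes. Both tables listed 16, with 5 in Hep3B alone and 11 in Huh7 alone. The other 5 genes (PFKP, PKLR, LDHB, FBP1 and G6PC) were not analysed here.

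Hep3B and Huh7 are established lines from human hepatocellular carcinomas. Each was sequenced as parental cells and as cells labelled lenvatinib-resistant, which gave 4 groups of 3 libraries. Lenvatinib blocks the VEGF and FGF receptors together with PDGFRA, KIT and RET. All 4 groups were grown in DMEM with fetal bovine serum. DMSO and lenvatinib are named as treatments without being tied to libraries, so the presence of the drug at harvest is not known. How resistance was obtained, whether a resistant line is 1 clone, and whether replicates were separate cultures are not stated, so each p-value measures the spread between these libraries, which may be technical.

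Glucose enters cells through carriers of the SLC2A (GLUT) family, is trapped as glucose 6-phosphate by hexokinases and is split and oxidised to pyruvate along the glycolytic chain. Pyruvate is then reduced to lactate or admitted to mitochondria, while hepatocytes can run the chain backwards with their own enzymes, PCK1, FBP1 and G6PC, to release glucose. The transcription factors HIF1A and EPAS1 (HIF-2 alpha) raise many of these genes when oxygen is short, because the EGLN prolyl hydroxylases that mark them for destruction need oxygen. Liver tumours are known for a shift from the liver isoforms of these enzymes to HK2, ALDOA and PKM.

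HIF binds short DNA letters, ACGTG or GCGTG, near its targets. Both strings were searched on both strands in windows from 250 bases before to 50 bases after each RefSeq start (GRCh38.p14), and 32 of the 37 genes matched the promoter table. At least 1 of their windows held the letters in 30 of the 32 genes (93.8%), against 52.4% of 27305 genes with a window. Counted by window it was 38 of 56 (67.9%), against 48.4% of 35116, and a gene with several starts has several chances. Base composition was not matched, and a match is a description of letters, not of a bound site. The windows below are examples from genes with 1 window each. ALDOC and EGLN1 were lower in both resistant lines and BNIP3 was higher in both. ENO2 moved in opposite directions, and EGLN3 had the largest rise of the set in Huh7. Capitals mark the letters in either orientation, and CACGTG reads as ACGTG on both strands. ALDOC (chr17:28576846-28577145, minus strand) had 5 matches, EGLN1 (chr1:231422238-231422537, minus strand) 1, BNIP3 (chr10:131981874-131982173, minus strand) 6, ENO2 (chr12:6914330-6914629, plus strand) 1 and EGLN3 (chr14:33951025-33951324, minus strand) 0.

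ALDOC: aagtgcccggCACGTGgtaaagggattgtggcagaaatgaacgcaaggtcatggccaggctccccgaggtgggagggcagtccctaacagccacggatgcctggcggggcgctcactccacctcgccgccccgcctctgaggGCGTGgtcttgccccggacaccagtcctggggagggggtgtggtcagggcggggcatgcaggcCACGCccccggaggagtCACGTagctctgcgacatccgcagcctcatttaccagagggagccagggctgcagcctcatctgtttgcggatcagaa
EGLN1: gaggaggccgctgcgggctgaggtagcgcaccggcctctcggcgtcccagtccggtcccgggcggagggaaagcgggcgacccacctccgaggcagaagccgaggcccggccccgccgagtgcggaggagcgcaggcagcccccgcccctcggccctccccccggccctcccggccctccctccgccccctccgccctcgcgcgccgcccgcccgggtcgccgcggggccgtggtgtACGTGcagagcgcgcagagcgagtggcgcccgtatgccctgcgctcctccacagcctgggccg
BNIP3: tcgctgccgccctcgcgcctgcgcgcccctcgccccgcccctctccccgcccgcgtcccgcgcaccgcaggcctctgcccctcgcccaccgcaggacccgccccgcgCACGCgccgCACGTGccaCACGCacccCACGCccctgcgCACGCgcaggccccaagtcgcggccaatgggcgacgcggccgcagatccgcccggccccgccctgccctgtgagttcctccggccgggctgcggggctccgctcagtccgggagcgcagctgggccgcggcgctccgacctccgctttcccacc
ENO2: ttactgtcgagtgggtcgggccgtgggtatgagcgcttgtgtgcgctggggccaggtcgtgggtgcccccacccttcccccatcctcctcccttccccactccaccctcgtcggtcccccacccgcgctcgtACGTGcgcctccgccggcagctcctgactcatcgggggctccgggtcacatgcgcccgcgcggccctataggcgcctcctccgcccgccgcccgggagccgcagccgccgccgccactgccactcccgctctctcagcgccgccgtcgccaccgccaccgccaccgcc
EGLN3: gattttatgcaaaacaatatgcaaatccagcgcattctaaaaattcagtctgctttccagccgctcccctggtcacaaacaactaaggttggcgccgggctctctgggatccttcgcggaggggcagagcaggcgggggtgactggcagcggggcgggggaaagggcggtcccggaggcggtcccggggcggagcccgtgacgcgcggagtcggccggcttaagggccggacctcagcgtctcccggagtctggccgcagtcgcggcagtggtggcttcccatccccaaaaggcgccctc

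These windows differ in how many matches they hold: of the genes lower in both lines, ALDOC had 5 and EGLN1 had 1, and BNIP3, higher in both, had 6. HK2 and EPAS1, also lower in both, are not shown. The windows of HK2 had 3 and 6 matches and that of EPAS1 had 1. That the EGLN3 window had no match says only that the letters are not in these 300 bases.

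Levels are scaled reads, meaning sequencing reads divided by the size factor of the library, and they were not compared between genes, whose lengths differ. Group values are mean ± SD (n = 3). Changes are log2 fold changes, resistant over parental, ± SE, from limma on log2(scaled reads + 1), a scale that understates the change of genes with few reads. A gene is called where its limma p, adjusted over the whole table by the Benjamini-Hochberg method, was under 0.05. Over listed genes the libraries held 6363935 to 7475184 reads in parental Hep3B, 6184929 to 6884468 in resistant Hep3B, 12029528 to 14174202 in parental Huh7 and 11480608 to 11800771 in resistant Huh7. Each Hep3B entry counts the reads of 1 RefSeq transcript, so a gene with several transcripts may show part of its reads there. The Huh7 table holds whole genes, but only genes with a deposited adjusted p of at most 0.0499, so a call in Huh7 was set by that selection and carries no information of its own. In bulk RNA, fewer cells of a type and less RNA per cell cannot be told apart.

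Liver markers were abundant in both lines. In Hep3B, 9 of 15 were listed, 8 of them lower and 1 higher in resistant cells, and their sum went from 408260.4 to 413410.2 scaled reads in parental libraries to 198472 to 202460.5 in resistant ones. In Huh7, 11 were listed, 6 higher and 5 lower, with a sum of 528322 to 579944 before and 620741 to 645483 after. Fibroblast markers summed to 616 to 693 and then 2224 to 2501 in Hep3B (4 of 5 listed, 2 higher and 2 lower). That sum followed COL1A1 (24.9 ± 7.23 to 1937 ± 177), with COL1A2 also higher and LUM and PDGFRB lower. In Huh7 fibroblast markers summed to 4161 to 4349.7 and then 884 to 888 (3 of 5, all lower). Leukocyte markers (2 of 5 listed in each line, 1 higher and 1 lower) summed to 438 to 520.1 and then 108 to 121 in Hep3B, and to 6456 to 6674 and then 5280.0 to 5460.2 in Huh7, mostly LYZ. Endothelial markers summed to at most 19.3 in Hep3B (1 of 4 listed). In Huh7 (2 of 4, PECAM1 higher and VWF lower) they went from 121 to 153 up to 235 to 250.1. The part of these shifts in the results below was not tested.

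Resistant Hep3B cells had lower HK2, ALDOC, EPAS1 and EGLN1 and higher ENO2, BNIP3L, ADM and BNIP3. Of the 21 listed genes, 5 were higher, 6 were lower and 10 did not pass. That is 52.4% called, against 49.5% of all entries (27.6% higher and 21.9% lower), so the share called was near the background. The median log2 fold change of the 21 was 0.09, against 0.07 over all entries. Changes of at least 2-fold were called for 5 of the 21 (23.8%), against 15.4% of all entries. The groups did not overlap for 13 of 21 (61.9%), against 56.3%. In resistant Huh7 cells 12 of 27 were higher and 15 lower, all being called as were 100% of listed genes (48.0% higher and 52.0% lower). The groups did not overlap for 27 of 27, against 98.6%, and 7 (25.9%) changed at least 2-fold, against 25.6%. Their median was -0.27, against -0.19 over all Huh7 genes.

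**Figure D1:**
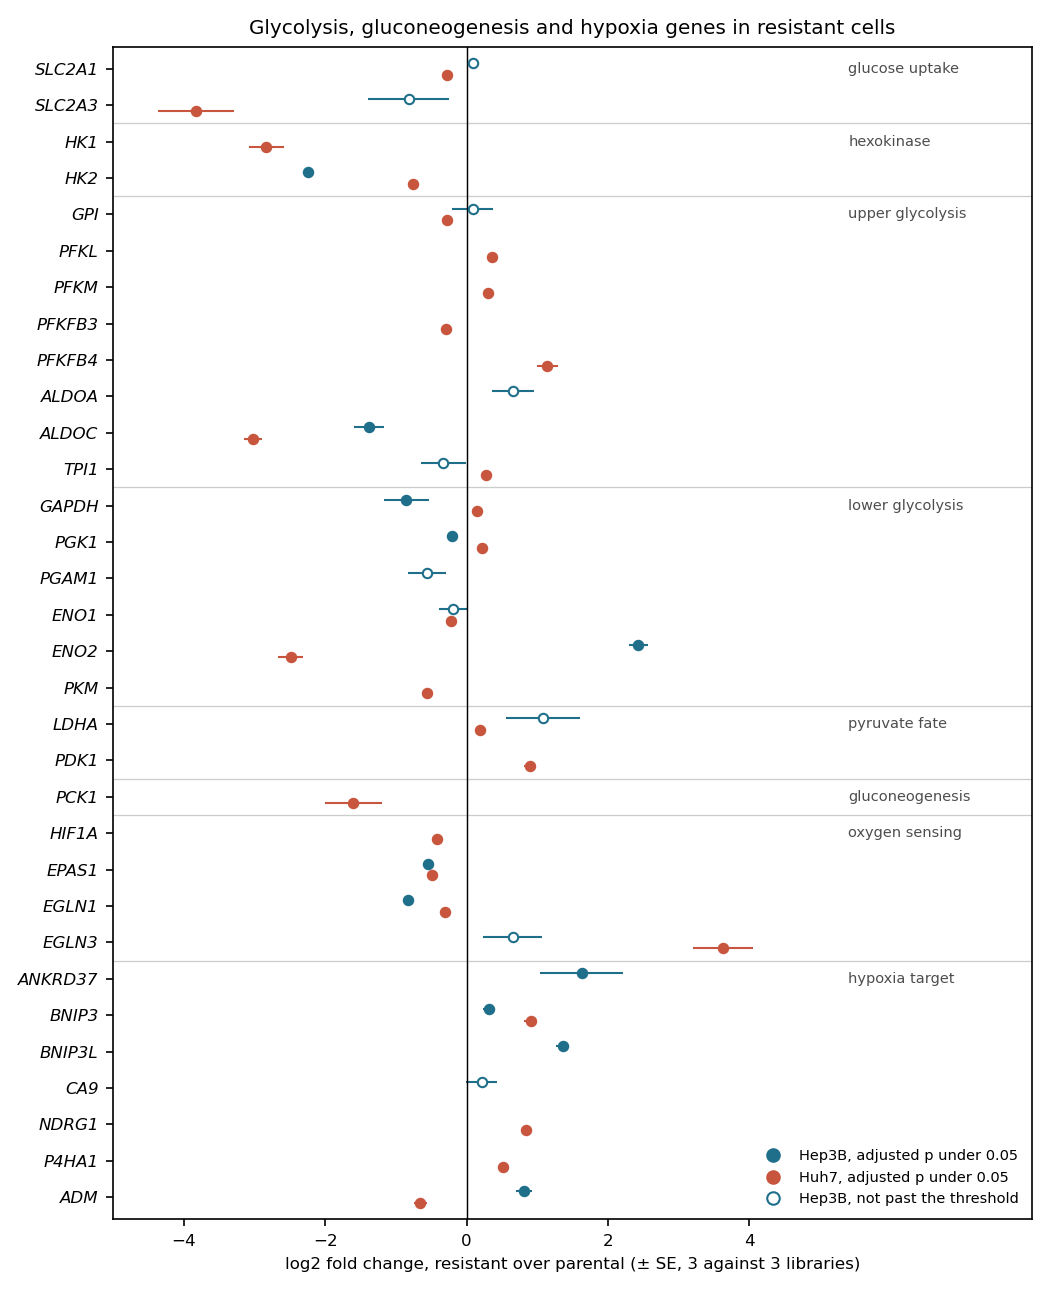
Log2 fold change of each gene (horizontal axis, resistant over parental, with bars of 1 SE) in Hep3B (blue) and Huh7 (red), grouped by role; open points are Hep3B genes whose adjusted p was not under 0.05. ENO2 lies far to the right in Hep3B (2.43) and far to the left in Huh7 (-2.49), ALDOC and HK2 lie to the left in both lines, and SLC2A3 (-3.83) and EGLN3 (3.63) mark the ends of the Huh7 range.

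The deposited scaling placed the median of all Hep3B entries at 0.07 with 55.7% of calls higher. Median centring moved it to -0.09 with 1747 calls higher and 2704 lower (39.2% higher; 20% and 31.0% of entries). No called gene of the set turned direction on any scaling in either line, but BNIP3 lost its Hep3B call with median centring (0.15, limma adjusted p = 0.123) and PGK1 in Hep3B went from -0.20 to -0.36. In Huh7 the median was -0.19 as deposited and -0.10 with DESeq2 size factors, and changes of that size are within what the scaling can shift. The alternative Huh7 scalings were computed from the listed genes alone, all selected as changed. They therefore do not measure the error of the deposited scaling.

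Both glucose carriers of the set were lower in Huh7, and neither passed in Hep3B. SLC2A1 (GLUT1), the carrier of basal glucose uptake in most cells, went from 1542 ± 29.4 to 1278 ± 75.4 scaled reads in Huh7 (log2 fold change -0.27 ± 0.06, limma adjusted p = 0.000392), a small fall. In Hep3B it went from 460.3 ± 10.3 to 492 ± 15.6 and did not pass (0.09 ± 0.08, limma adjusted p = 0.344). SLC2A3 (GLUT3), a high-affinity carrier best known from neurons, had 51.9, 57.0 and 46.6 scaled reads in the parental libraries and 5.19, 0 and 7.21 in the resistant ones of Huh7. All 3 resistant libraries were far under the parental ones (log2 fold change -3.83 ± 0.54, limma adjusted p = 3.10e-06). The second of them had no read, and without resistant replicate 2 the log2 fold change was -2.88, and with a pseudocount of 10 it was -2.16. In Hep3B SLC2A3 had 12.9, 4.39 and 7.92 scaled reads in the parental libraries and 1.88, 7.13 and 4.18 in the resistant ones, the groups overlapped and it did not pass (-0.82 ± 0.57, limma adjusted p = 0.247). Reads of SLC2A3 may be shared with its near-identical copy SLC2A14.

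Both hexokinases of the set were lower in resistant cells where listed, HK2 in both lines and HK1 in Huh7 alone. HKDC1, a hexokinase outside the set, rose in Hep3B (1.67 ± 0.07). HK2, a hexokinase that binds mitochondria and that liver tumours gain, had 6278, 6375 and 6187 scaled reads in the parental libraries and 1253, 1331 and 1383 in the resistant ones of Hep3B. It was 4.75-fold lower there, and parental and resistant libraries were far apart (log2 fold change -2.25 ± 0.05, limma adjusted p = 2.16e-17). In Huh7 HK2 had 2801, 2702 and 2608 scaled reads in the parental libraries and 1584, 1649 and 1565 in the resistant ones, a 1.69-fold fall with no overlap (log2 fold change -0.76 ± 0.05, limma adjusted p = 3.32e-10). HK1, the housekeeping hexokinase of most tissues, was listed in Huh7 only, with 86.2, 103 and 89.7 scaled reads in the parental libraries and 9.34, 16.8 and 11.3 in the resistant ones. It was 7.44-fold lower, and the highest resistant library was well under the lowest parental one (log2 fold change -2.83 ± 0.25, limma adjusted p = 6.96e-09; -2.20 with a pseudocount of 10).

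In the upper part of glycolysis the aldolase isoform ALDOC was the gene that moved most. ALDOC, the aldolase best known from brain, had 72.7, 69.1 and 88.2 scaled reads in the parental libraries and 29.1, 26.5 and 30.3 in the resistant ones of Hep3B, a 2.68-fold fall (log2 fold change -1.38 ± 0.21, limma adjusted p = 1.65e-05). In Huh7 it had 502, 580.2 and 538 scaled reads in the parental libraries and 68.5, 55.6 and 74.2 in the resistant ones, an 8.17-fold fall (log2 fold change -3.02 ± 0.13, limma adjusted p = 1.10e-13). The groups did not overlap in either line. ALDOA, the muscle and general aldolase, was listed in Hep3B only and did not pass (18.9 ± 1.69 to 31.4 ± 10.7, 0.66 ± 0.30, limma adjusted p = 0.0771).

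The phosphofructokinase step could be followed in Huh7 alone. PFKL and PFKM, the liver and muscle subunits of the enzyme that commits sugar to glycolysis, were both slightly higher (0.36 ± 0.06 and 0.31 ± 0.06). Its regulators, the bifunctional enzymes that make and degrade fructose 2,6-bisphosphate, went apart. PFKFB4 had 152, 254 and 149 scaled reads in the parental libraries and 428, 363 and 404 in the resistant ones and rose 2.15-fold without overlap (log2 fold change 1.14 ± 0.15, limma adjusted p = 1.62e-06). PFKFB3, which mainly makes the activator, fell from 2030.3 ± 144 to 1654 ± 76.1 (log2 fold change -0.29 ± 0.06, limma adjusted p = 0.000225). GPI, which turns glucose 6-phosphate into fructose 6-phosphate, was lower in Huh7 (-0.28 ± 0.05) and TPI1, which interconverts the triose phosphates, was higher (0.28 ± 0.05). Neither passed in Hep3B, where both entries had under 40 scaled reads in every library (GPI 0.09 ± 0.29, limma adjusted p = 0.83; TPI1 -0.33 ± 0.31, limma adjusted p = 0.41).

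The enolase isoform ENO2 had the largest contrast between the lines. ENO2, the neuronal enolase and a gene raised by low oxygen, had 65.4, 61.4 and 53.5 scaled reads in the parental libraries and 311, 322 and 349 in the resistant ones of Hep3B. That is a 5.45-fold rise with every resistant library above every parental one (log2 fold change 2.43 ± 0.14, limma adjusted p = 6.26e-12). In Huh7 it had 208, 199.5 and 206 scaled reads in the parental libraries and 28.0, 38.8 and 41.2 in the resistant ones, a 5.67-fold fall with no overlap (log2 fold change -2.49 ± 0.17, limma adjusted p = 1.76e-10). ENO1, the general enolase, fell slightly in Huh7 (30339 ± 968 to 25982 ± 463, -0.22 ± 0.04, limma adjusted p = 7.25e-05) and did not pass in Hep3B (68.6 ± 16.7 to 59.1 ± 6.04, -0.19 ± 0.20, limma adjusted p = 0.468). The annotated ENO2 gene overlaps LRRC23.

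GAPDH and PGK1, the enzymes that oxidise the triose and then make ATP from the product, were called in opposite directions. GAPDH had 32192, 32897 and 31985 scaled reads in the parental libraries and 36077, 35951 and 35393 in the resistant ones of Huh7, a small rise without overlap (log2 fold change 0.15 ± 0.04, limma adjusted p = 0.00186), which did not pass with quantile normalization (0.04, limma adjusted p = 0.34). In Hep3B it had 49.7, 30.7 and 54.5 scaled reads in the parental libraries and 17.8, 18.3 and 40.8 in the resistant ones. There the third resistant library lay among the parental ones and the call was weak (log2 fold change -0.85 ± 0.32, limma adjusted p = 0.0333). It was lost without parental replicate 1 (-0.76, limma adjusted p = 0.114), parental replicate 3 (-0.69, 0.136), resistant replicate 1 (-0.65, 0.149) or resistant replicate 2 (-0.67, 0.114), and also without limma's trend and in the authors' deposited table. The Hep3B entry is 1 of 6 curated transcripts, and 62 annotated pseudogenes carry the name of GAPDH, so its reads are uncertain as a measure of the gene.

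PGK1 had 4265, 3978 and 4169 scaled reads in the parental libraries and 3698, 3374 and 3704 in the resistant ones of Hep3B, a 1.15-fold fall (log2 fold change -0.20 ± 0.05, limma adjusted p = 0.00231). This call was lost with quantile normalization (-0.10, limma adjusted p = 0.13) and without limma's trend (0.0779). In Huh7 PGK1 had 3712, 3930.4 and 3552 scaled reads in the parental libraries and 4343, 4179.7 and 4523 in the resistant ones, a 1.17-fold rise (log2 fold change 0.22 ± 0.05, limma adjusted p = 0.000739). Both changes were small, and neither pair of groups overlapped. PGAM1, the mutase that follows, was listed in Hep3B only and did not pass (49.9 ± 17.5 to 32.5 ± 4.79, -0.56 ± 0.27, limma adjusted p = 0.0893), though it did without parental replicate 1 (-0.82, limma adjusted p = 0.0191), with median centring (-0.72, 0.0302), with quantile normalization (-0.83, 0.0148) and with edgeR (-0.66, 0.0472). PKM, the pyruvate kinase of tumours, was listed in Huh7 only and fell 1.48-fold from 30899 ± 1162 to 20877 ± 295 (log2 fold change -0.57 ± 0.04, limma adjusted p = 6.24e-10).

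**Figure D2:**
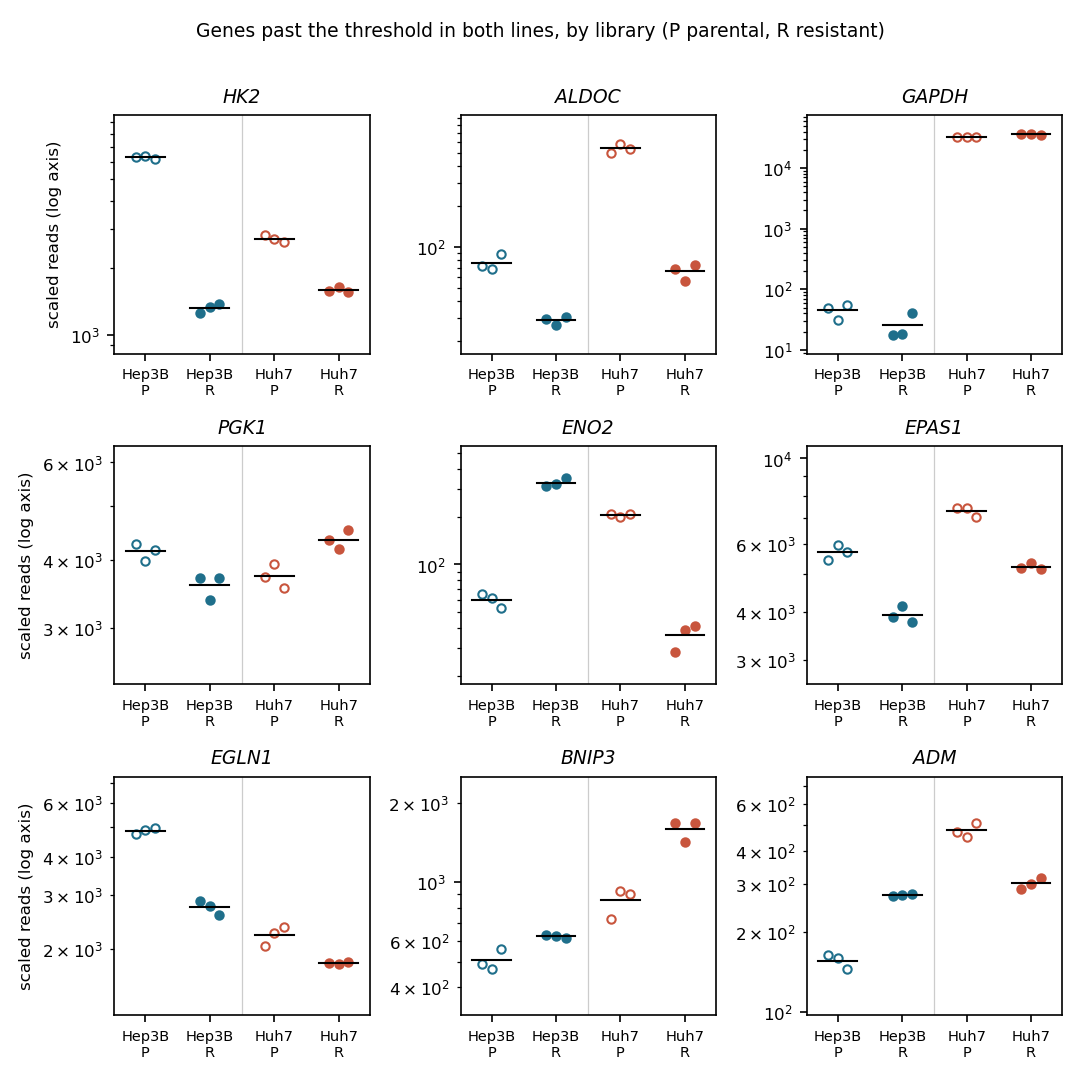
Scaled reads (log axes that differ between panels) in each library for the 9 genes called in both lines; open points are parental (P), filled points resistant (R), and the black line is the group mean. HK2, ALDOC, EPAS1 and EGLN1 drop in both lines and BNIP3 rises in both. ENO2, ADM, GAPDH and PGK1 go opposite ways, though the GAPDH groups overlap in Hep3B. Levels of the 2 lines come from tables scaled separately.

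At the fate of pyruvate, 2 genes were listed in Huh7 and both were higher. PDK1, the kinase that switches off pyruvate dehydrogenase and is raised by HIF, went from 301 ± 26.0 to 561 ± 16 (log2 fold change 0.90 ± 0.09, limma adjusted p = 2.63e-08), 1.86-fold. LDHA, the lactate dehydrogenase subunit that favours lactate, rose 1.14-fold (10659.7 ± 707 to 12123 ± 438, 0.19 ± 0.05, limma adjusted p = 0.00204). In Hep3B the LDHA entry, 1 of 6 curated transcripts, had 4.60, 9.87 and 1.98 scaled reads in the parental libraries and 14.1, 11.2 and 8.37 in the resistant ones and did not pass (1.08 ± 0.52, limma adjusted p = 0.0939). Without parental replicate 2 it was called (1.55, limma adjusted p = 0.0264).

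Of the gluconeogenic enzymes, PCK1 alone was listed, in Huh7. PCK1, the cytosolic enzyme that starts glucose production from oxaloacetate, had 16.7, 27.5 and 19.0 scaled reads in the parental libraries and 4.15, 4.20 and 12.4 in the resistant ones. These are low levels (log2 fold change -1.60 ± 0.40, limma adjusted p = 0.00107), and the authors' deposited adjusted p was weaker, 0.0276. The highest resistant library was under the lowest parental one, but groups did not overlap for 98.6% of listed Huh7 genes. With a pseudocount of 10 the log2 fold change was -0.90, still called.

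Of the oxygen sensors and HIF subunits, 2 of 3 were lower in Hep3B, against 21.9% of all entries, and 3 of 4 in Huh7, against 52.0%. HIF1A, listed in Huh7 only, had a level that went from 7035 ± 562 to 5276 ± 273 (log2 fold change -0.41 ± 0.06, limma adjusted p = 2.65e-06). EPAS1 had 5440.3, 5949 and 5708 scaled reads in the parental libraries and 3878, 4127 and 3749 in the resistant ones of Hep3B, a 1.45-fold fall (log2 fold change -0.54 ± 0.05, limma adjusted p = 1.52e-08). In Huh7 it had 7433, 7422 and 7063 scaled reads in the parental libraries and 5179, 5359 and 5148 in the resistant ones, a 1.4-fold fall (log2 fold change -0.48 ± 0.05, limma adjusted p = 2.20e-08). All resistant libraries of both lines were under their parental ones.

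EGLN1 (PHD2), the main oxygen sensor that hydroxylates HIF, had 4759, 4916 and 4964 scaled reads in the parental libraries and 2875, 2759 and 2582 in the resistant ones of Hep3B, a 1.78-fold fall (log2 fold change -0.83 ± 0.05, limma adjusted p = 2.51e-11). In Huh7 it had 2044, 2263 and 2364 scaled reads in the parental libraries and 1803, 1791 and 1808 in the resistant ones, a 1.24-fold fall (log2 fold change -0.30 ± 0.06, limma adjusted p = 0.000122). The groups did not overlap in either line. EGLN3 (PHD3), a sensor that HIF itself induces, went the other way in Huh7, with 2.94, 1.02 and 6.90 scaled reads in the parental libraries and 60.2, 52.5 and 35 in the resistant ones. It was 13.6-fold higher from very few parental reads (log2 fold change 3.63 ± 0.42, limma adjusted p = 2.78e-07), and with a pseudocount of 10 the log2 fold change was 2.12. In Hep3B it had 8.29, 7.68 and 5.94 scaled reads in the parental libraries and 10.3, 14.3 and 11.5 in the resistant ones. These groups did not overlap, but the change did not pass (0.65 ± 0.42, limma adjusted p = 0.209), except without limma's trend (limma adjusted p = 0.0291).

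Of the 7 genes grouped here as hypoxia targets, 5 were listed in Hep3B. There 4 were called, all higher, against 27.6% of all entries called higher, and the ANKRD37 call was lost under 7 alternatives. Of 4 listed in Huh7, 3 were higher, against 48.0% of all genes, and 1 was lower. Each gene had 1 role, so others raised by low oxygen, such as ENO2 and EGLN3, were counted elsewhere. All 6 genes called lower in Hep3B, HK2, ALDOC, GAPDH, PGK1, EPAS1 and EGLN1, were in other roles. These counts therefore do not describe hypoxia-induced genes as a whole. BNIP3, which directs mitochondria to autophagy, had 489.8, 468 and 557 scaled reads in the parental libraries and 633, 624 and 617 in the resistant ones of Hep3B (log2 fold change 0.31 ± 0.08, limma adjusted p = 0.00325), the call lost with median centring above. In Huh7 it had 727, 929 and 904 scaled reads in the parental libraries and 1679, 1421 and 1681 in the resistant ones, a 1.87-fold rise (log2 fold change 0.90 ± 0.09, limma adjusted p = 1.78e-08). Resistant libraries were above parental ones in both lines, and 39 annotated pseudogenes named after BNIP3 may share its reads. BNIP3L (NIX), its relative with the same role, was listed in Hep3B only and had 218, 222 and 229 scaled reads in the parental libraries and 621, 524 and 578 in the resistant ones, a 2.58-fold rise (log2 fold change 1.36 ± 0.09, limma adjusted p = 1.58e-10).

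ADM, the gene of the vasodilator peptide adrenomedullin, was called in opposite directions. It had 163, 159 and 146 scaled reads in the parental libraries and 272, 273 and 276 in the resistant ones of Hep3B, a 1.76-fold rise (log2 fold change 0.81 ± 0.11, limma adjusted p = 3.51e-06). In Huh7 it had 472, 451 and 507 scaled reads in the parental libraries and 289, 301 and 317 in the resistant ones, a 1.58-fold fall (log2 fold change -0.65 ± 0.09, limma adjusted p = 1.81e-06). Neither pair of groups overlapped. ANKRD37, an ankyrin repeat gene induced by HIF, had 2.76, 1.10 and 9.91 scaled reads in the parental libraries and 9.39, 10.2 and 20.9 in the resistant ones of Hep3B, with parental and resistant libraries overlapping. It was called higher (log2 fold change 1.63 ± 0.59, limma adjusted p = 0.0263), but the call was lost without parental replicate 1 (1.51, limma adjusted p = 0.0692), parental replicate 2 (1.09, 0.108) or resistant replicate 3 (1.29, 0.146), with quantile normalization, without limma's trend, with DESeq2 and in the authors' deposited table. Without parental replicate 3 the log2 fold change was 2.28, and with a pseudocount of 10 it was 0.70, both called.

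The remaining targets were each listed in 1 line. NDRG1, a stress-responsive gene of differentiated epithelia, rose in Huh7 from 3342 ± 381 to 5952 ± 177 (log2 fold change 0.84 ± 0.06, limma adjusted p = 8.91e-10). P4HA1, a subunit of the prolyl hydroxylase that matures collagen, rose in Huh7 from 1211 ± 148 to 1732 ± 119 (log2 fold change 0.52 ± 0.08, limma adjusted p = 5.82e-06). CA9, the surface carbonic anhydrase often used as a hypoxia marker, did not pass in Hep3B (39.4 ± 4.25 to 45.8 ± 3.42, 0.22 ± 0.22, limma adjusted p = 0.449).

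**Figure D3:**
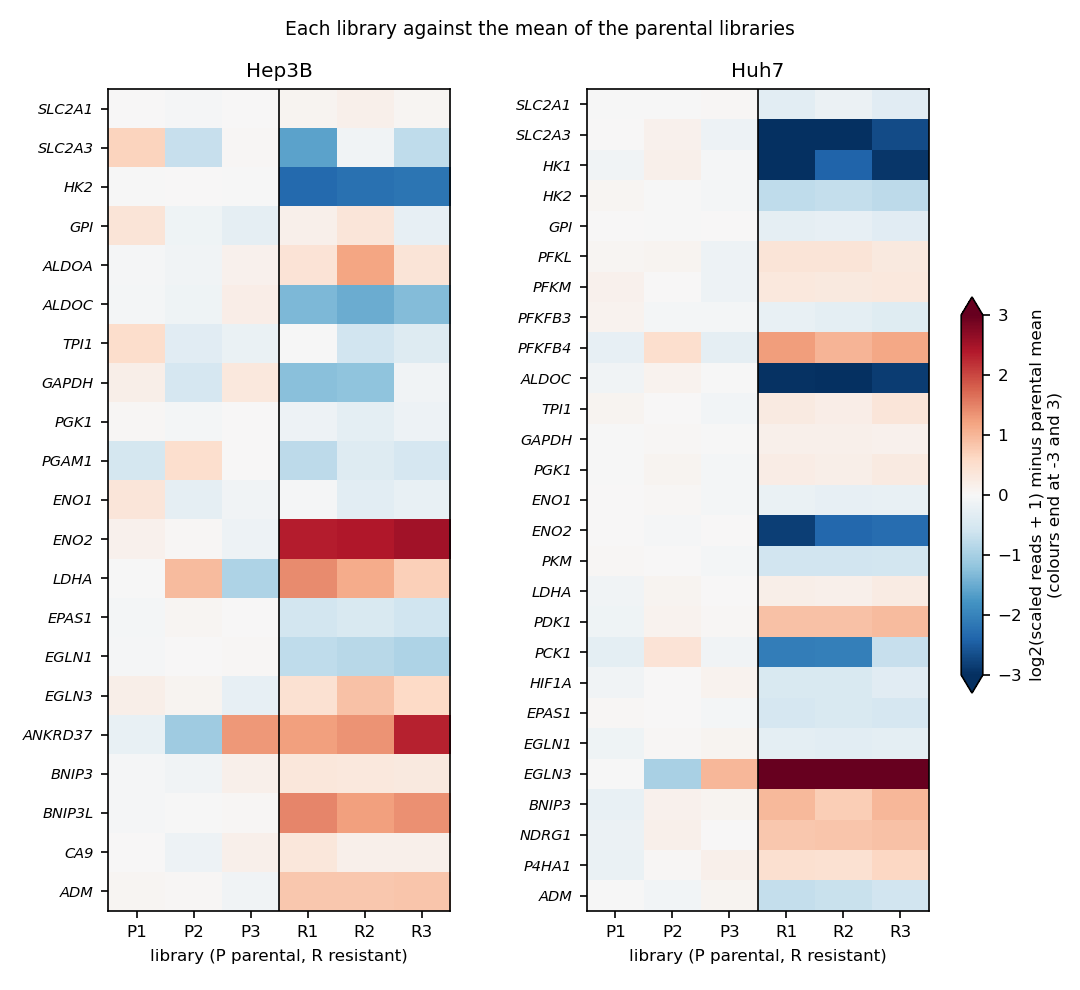
Each library's log2(scaled reads + 1) minus the mean of the 3 parental libraries of its line, for every listed gene (rows) and library (columns; P parental, R resistant); red is higher and blue lower, and the colours end at -3 and 3. In Huh7 the 3 resistant columns look alike for most rows, while in Hep3B the rows of SLC2A3, TPI1, GAPDH, LDHA and ANKRD37 vary within a group.

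In Hep3B, entries with few reads were called less often over the whole table, 28.9% of 3725 with both group means under 100 scaled reads and 64.9% of the other 4992. The set had 12 genes of the first kind, 3 of them called (ALDOC, GAPDH and ANKRD37), and 9 of the second, 8 of them called, SLC2A1 being the exception. Of its genes with 1 curated RefSeq transcript 7 of 10 were called, against 56.3% of 4485 entries, and with 2 or more 4 of 11, against 43.2% of 3794. The GAPDH entry averaged 45.0 parental scaled reads in Hep3B, while the Huh7 gene had 32358 in a table scaled separately and counted by gene. For the 11 genes with 2 or more curated transcripts the Hep3B values cover 1 transcript, and the level of the whole gene was not measured. These are HK2, GAPDH, EGLN1 and BNIP3L, which were called, and GPI, ALDOA, TPI1, PGAM1, ENO1, LDHA and EGLN3, which were not. Of the 37 genes, 27 overlap another gene in GENCODE release 29, 22 of them one on the opposite strand, and the strand setting of the counting is not given in the sources used here.

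Across the 16 genes listed in both lines, 5 were called in the same direction (31.3%, against 25.7% of 3885 shared symbols) and 4 in opposite directions (25.0%, against 29.1%). HK2, ALDOC, EPAS1 and EGLN1 were lower in both and BNIP3 was higher in both. ENO2 and ADM were higher in Hep3B and lower in Huh7, and GAPDH and PGK1 the reverse. Some of these calls were weak. In Hep3B that of GAPDH was lost under 6 alternatives, that of PGK1 under 2 and that of BNIP3 under 1. In Huh7 that of GAPDH was lost under 1. The difference of the 2 log2 fold changes, Huh7 minus Hep3B, was tested for each gene over all shared symbols. It passed for 11 of the 16 (68.8%), against 67.1% of shared symbols, so differing between lines was as common among these genes as elsewhere.

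Opposite signs stood behind the differences of ENO2 (-4.92 ± 0.22, adjusted p = 6.14e-21 from the limma fits), ADM (-1.46 ± 0.14, 1.76e-11), PGK1 (0.43 ± 0.07, 3.76e-06) and GAPDH (1.0 ± 0.32, 0.01). That of GAPDH was lost without Hep3B parental replicate 3 (0.84, limma adjusted p = 0.0541) or Hep3B resistant replicate 1 (0.80, 0.0588), and also without limma's trend (0.0784). HK2 fell further in Hep3B (1.49 ± 0.08, 5.98e-20), as did EGLN1 (0.53 ± 0.08, 1.97e-07), and ALDOC fell further in Huh7 (-1.64 ± 0.25, 8.12e-07). BNIP3 rose further in Huh7 (0.59 ± 0.12, 3.50e-05). EGLN3 (2.98 ± 0.60, 3.59e-05) and SLC2A3 (-3.01 ± 0.79, 0.000963) differed with the large Huh7 changes. With a pseudocount of 10 these differences were 1.77 and -1.82, and without Huh7 resistant replicate 2 that of SLC2A3 was -2.06, all passing. SLC2A1 differed slightly (-0.37 ± 0.10, 0.00156), a difference lost with DESeq2 size factors (-0.22, adjusted p = 0.0515) and with median centring (-0.15, 0.2). The DESeq2 fit lost it too (-0.22, DESeq2 adjusted p = 0.0985).

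For the other 5 genes the difference did not pass, and its 95% interval is given for the main fit and scaling only. The Huh7 side of every difference comes from genes selected by their deposited adjusted p, and the effect of this selection was not tested. That of EPAS1 was 0.06 ± 0.07 with an interval of -0.08 to 0.20, a narrow range around equal falls. It passed, however, with median centring (0.28, limma adjusted p = 0.000826) and with DESeq2 size factors (0.20, 0.0126). The intervals were wide where Hep3B had few reads: -0.99 to 0.25 for GPI, -0.05 to 1.27 for TPI1, -0.47 to 0.40 for ENO1 and -1.99 to 0.20 for LDHA. TPI1 passed with a pseudocount of 10 (0.52, limma adjusted p = 0.0439) and with 3 other scalings (0.75 to 0.95), and LDHA without Hep3B parental replicate 2 (-1.37, limma adjusted p = 0.0371).

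Other genes of the same pathways were taken from 8 lists of 109 genes in all. In Hep3B 52 were listed, of which 17 were higher, 14 lower and 21 did not pass (59.6% called, against 49.5% of all entries, median 0.07). In Huh7 62 were listed, 33 higher and 29 lower, where 48.0% of all genes were higher and 52.0% lower, with a median of 0.20 against -0.19 for all genes.

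**Figure D4:**
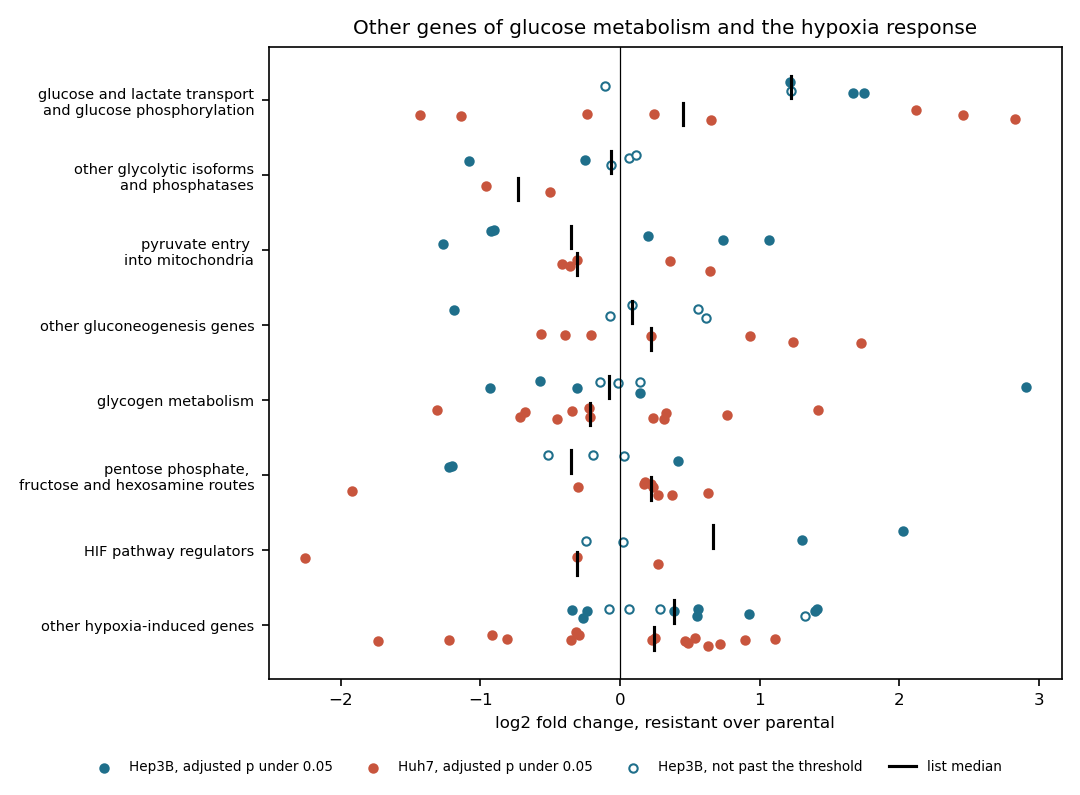
Log2 fold changes (horizontal axis) of the listed genes of each of the 8 lists (rows) in Hep3B (blue, upper) and Huh7 (red, lower); open points did not pass in Hep3B and the black bar is the list median. Most lists spread to both sides of 0 in each line; PPP1R3G (2.91) is the farthest point in Hep3B and SLC2A10 (2.82) in Huh7.

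The list of glucose and lactate transport and glucose phosphorylation had 3 of 5 genes higher and 0 lower in Hep3B (27.6% and 21.9% of all entries), and 5 of 8 higher and 3 lower in Huh7 (48.0% and 52.0% of all genes). SLC2A12 (GLUT12) rose from 33.2 ± 1.66 to 114 ± 4.76 in Hep3B (1.75 ± 0.19) and from 3.93 ± 2.83 to 19.4 ± 8.27 in Huh7 (2.12 ± 0.45, or 1.06 with a pseudocount of 10). The 2 changes were not shown to differ (0.37 ± 0.49, limma adjusted p = 0.522). SLC2A10 (GLUT10) rose in Huh7 from 15.3 ± 2.05 to 115 ± 24.2 (2.82 ± 0.23), whereas SLC2A2 (GLUT2), the carrier of normal hepatocytes, fell from 325 ± 15.8 to 119.9 ± 0.475 (-1.43 ± 0.11). HKDC1, a further hexokinase, rose in Hep3B from 682 ± 21.9 to 2171 ± 174 (1.67 ± 0.07), in the line where HK2 fell. GCKR, which restrains glucokinase in liver nuclei, rose in Huh7 from 18.7 ± 5.73 to 103 ± 4.75 (2.45 ± 0.24). BSG, the chaperone of lactate carriers, was called higher in Hep3B from 9.03 ± 5.74 to 20.5 ± 5.06, a call lost under 7 alternatives, among them without parental replicate 2 (limma adjusted p = 0.0669), parental replicate 3 (0.0706) or resistant replicate 1 (0.106).

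Of the other isoforms and phosphatases of the chain, 2 of 5 were lower in Hep3B (21.9% of all entries) and 2 of 2 in Huh7 (52.0% of all genes). PGP, a phosphatase of glycolytic side products, fell in Hep3B (-0.25 ± 0.07), and so did the entry of PGAM5, a mitochondrial phosphatase of the mutase family (-1.08 ± 0.35), except without parental replicate 1 (-0.94, limma adjusted p = 0.0722). In Huh7 the muscle enolase ENO3 fell from 486 ± 65.6 to 248 ± 9.22 (-0.96 ± 0.10) and BPGM, which makes 2,3-bisphosphoglycerate, fell by less (-0.50 ± 0.13).

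Genes of pyruvate entry into mitochondria were 3 higher and 3 lower of 6 in Hep3B (27.6% and 21.9% of all entries). DLAT, a core subunit of pyruvate dehydrogenase, fell from 2769 ± 79.3 to 1479 ± 31.9 (-0.90 ± 0.05) and PDP2, a phosphatase that reactivates the complex, fell too (-0.93 ± 0.08), while the inhibiting kinase PDK3 rose (1.07 ± 0.22). The MPC1 entry, a non-coding transcript of the pyruvate carrier gene, was called lower (-1.27 ± 0.48, or -0.64 with a pseudocount of 10), with 6 alternatives losing the call, among them without parental replicate 1 (-0.91, limma adjusted p = 0.195) and without resistant replicate 1 (0.0507) or 2 (0.11). In Huh7 MPC1 (-0.42 ± 0.06) and the regulator PDPR (-0.36 ± 0.06) fell and the phosphatases PDP1 (0.64 ± 0.11) and PDP2 (0.36 ± 0.09) rose, with 2 higher and 3 lower of 5 (48.0% and 52.0% of all genes). PDP2 thus differed between lines (1.28 ± 0.12, limma adjusted p = 3.69e-12).

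Other gluconeogenesis genes were higher for 4 and lower for 3 of 7 in Huh7 (48.0% and 52.0% of all genes), and lower for 1 of 5 in Hep3B (21.9% of all entries). In Huh7 the coactivator PPARGC1A rose from 48.3 ± 7.55 to 160.4 ± 7.71 (1.72 ± 0.16), the mitochondrial PCK2 from 1016 ± 83.2 to 2397 ± 14.8 (1.24 ± 0.06) and the liver factor CREB3L3 by 0.93 ± 0.07, beside lower PCK1 and a lower FOXO1 (-0.56 ± 0.09). In Hep3B the aspartate transaminase GOT1 fell from 2406 ± 145 to 1056 ± 26.6 (-1.19 ± 0.06).

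Glycogen genes included a pair that switched between lines. PPP1R3G, a subunit that steers protein phosphatase 1 to glycogen, rose in Hep3B from 29.5 ± 2.40 to 228 ± 27.7 (2.91 ± 0.17) and fell in Huh7 from 23.8 ± 9.42 to 8.99 ± 3.27 (-1.31 ± 0.37). PPP1R3C, another such subunit, fell in Hep3B from 125 ± 12.9 to 65.4 ± 13.5 (-0.93 ± 0.18) and rose in Huh7 from 84.2 ± 11.9 to 226 ± 29.5 (1.42 ± 0.15). Both differences passed (Huh7 minus Hep3B -4.22 ± 0.40 and 2.35 ± 0.23, limma adjusted p = 4.48e-10 and 1.57e-11). The branching enzyme GBE1 (-0.57 ± 0.09) and PGM2 (-0.31 ± 0.06) fell in Hep3B. In Huh7 the liver phosphorylase PYGL rose (0.77 ± 0.05) and the primer gene GYG2 fell (-0.72 ± 0.05). The list had 2 higher and 3 lower of 8 in Hep3B (27.6% and 21.9% of all entries) and 5 and 7 of 12 in Huh7 (48.0% and 52.0% of all genes).

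In the pentose phosphate, fructose and hexosamine routes, 1 of 6 was higher and 2 lower in Hep3B (27.6% and 21.9% of all entries), and 7 and 2 of 9 in Huh7 (48.0% and 52.0% of all genes). TKFC, the triokinase of fructose breakdown, fell in Hep3B from 717 ± 19.5 to 307 ± 21.1 (-1.22 ± 0.08) and PGLS, of the oxidative pentose route, rose (0.42 ± 0.07). The transketolase TKT entry was called lower (-1.20 ± 0.40), a call lost without parental replicate 2 (limma adjusted p = 0.0549), parental replicate 3 (0.0604) or resistant replicate 2 (0.0609). In Huh7 AKR1B1, the aldose reductase that starts the polyol route, fell from 1086 ± 36.6 to 287 ± 15.9 (-1.92 ± 0.08) and its successor enzyme gene SORD rose (0.37 ± 0.07). PGM3 of the hexosamine route rose (0.63 ± 0.05) and PGD of the pentose route fell (-0.30 ± 0.04).

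Of the HIF regulators 2 of 4 were higher in Hep3B (27.6% of all entries), and 1 of 3 was higher and 2 lower in Huh7 (48.0% and 52.0% of all genes). In Hep3B the entry of CITED2, a competitor of HIF for its coactivator, rose from 11.8 ± 3.66 to 29.9 ± 5.79 (1.30 ± 0.34). That entry is 1 of 3 curated transcripts and had few reads. In Huh7, counted by gene, CITED2 fell from 4565 ± 194 to 3684 ± 141 (-0.31 ± 0.05). The difference passed (-1.61 ± 0.34, limma adjusted p = 0.000277), but it sets 1 transcript against a whole gene. The EGLN2 entry of Hep3B was called higher from 2.35 ± 3.16 to 8.98 ± 0.726 (2.03 ± 0.69), a call lost under 6 alternatives, among them leaving out parental replicate 1 (1.38, limma adjusted p = 0.0784) and leaving out resistant replicate 1 (0.0653) or 3 (0.0611). Without parental replicate 3 its log2 fold change was 2.78, and with a pseudocount of 10 it was 0.65. In Huh7 ARNT2, a partner subunit of HIF, fell from 8.84 ± 1.83 to 1.4 ± 1.61 (-2.26 ± 0.55, or -0.73 with a pseudocount of 10) and VHL, which brings hydroxylated HIF to the proteasome, rose (0.27 ± 0.06).

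Among other hypoxia-induced genes 6 of 13 were higher and 3 lower in Hep3B (27.6% and 21.9% of all entries), and 9 of 16 were higher and 7 lower in Huh7 (48.0% and 52.0% of all genes). The repressor BHLHE40 rose in Hep3B from 659 ± 34.3 to 1752 ± 135 (1.41 ± 0.07), as did MIR210HG, the host transcript of a hypoxia-induced microRNA (1.39 ± 0.34), ZNF395 (0.92 ± 0.08) and the histone demethylase KDM4B (0.56 ± 0.06). In Huh7 EPO, the erythropoietin gene, fell from 138 ± 14.3 to 41.2 ± 9.28 (-1.73 ± 0.19), ANGPTL4, a lipase inhibitor, from 139.7 ± 18.6 to 58.9 ± 4.64 (-1.23 ± 0.16) and CA12, a carbonic anhydrase, from 1199 ± 75.8 to 634 ± 8.27 (-0.92 ± 0.07), while PPFIA4 rose (1.11 ± 0.29).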

How the data were processed

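Messenger levels were measured by RNA-seq of total RNA in 12 libraries, 3 per group, purified with a spin-column kit per the labels' protocols. Per the submitters' processing notes the genome build was GRCh37. Aligner, counter, annotation and strand setting: not given in the sources used here. Values deposited by the authors are a signal, not counts. In Hep3B the deposited value equals 2 times the square root of (reads + 0.375) over the library's size factor, for 1 RefSeq transcript per entry, and in Huh7 it equals reads over the size factor, per Ensembl gene. These forms were worked out from the values, and all gave whole reads within 0.05. The root was undone to give scaled reads. One Hep3B entry that names no gene (0.000119% of reads) was left out. The authors also deposited log2 fold changes and adjusted p-values, used here as an alternative.

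Because the unit was a scaled signal, limma 3.58.1 (R 4.3.3; trend, robust) was fitted to log2(scaled reads + 1) within each line, over entries with at least 1 scaled read in 3 libraries, with Benjamini-Hochberg adjustment over the whole table and a threshold of 0.05. The difference between lines used both fits, with Satterthwaite degrees of freedom, adjusted over 3885 shared symbols. Alternatives were pseudocounts, filters, scalings, a replicate block, leaving out each library, edgeR 4.0.16 and DESeq2 1.42.0 on the recovered reads. The model was tested on simulated data with 2-fold changes in entries above 100 scaled reads. That test does not cover smaller changes or entries with few reads. Replicates differed by more than sampling noise. Replicate numbers were not used to pair the libraries in the main fit. Genes with a called change of at least 2-fold, or called in both lines, are given by library, and the other genes named are the up to 4 largest called changes of each list. The members and lists were chosen with earlier results of these data known.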

Additional observations from a re-analysis of the deposited data

Results flagged for a closer look

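The change with resistance differed between Hep3B and Huh7 for 11 of the 16 genes listed in both, by the limma test of the difference (Huh7 minus Hep3B, log2, ± SE). It was higher in Huh7 for HK2, EGLN1, GAPDH, PGK1, EGLN3 and BNIP3: HK2 (1.49 ± 0.08, adjusted p = 5.98e-20), EGLN1 (0.53 ± 0.08, adjusted p = 1.97e-07), GAPDH (1.0 ± 0.32, adjusted p = 0.01), PGK1 (0.43 ± 0.07, adjusted p = 3.76e-06), EGLN3 (2.98 ± 0.60, adjusted p = 3.59e-05) and BNIP3 (0.59 ± 0.12, adjusted p = 3.50e-05), from the limma fits. For 5 genes it was lower in Huh7, namely ENO2 (-4.92 ± 0.22, adjusted p = 6.14e-21), ADM (-1.46 ± 0.14, adjusted p = 1.76e-11), ALDOC (-1.64 ± 0.25, adjusted p = 8.12e-07), SLC2A3 (-3.01 ± 0.79, adjusted p = 0.000963) and SLC2A1 (-0.37 ± 0.10, adjusted p = 0.00156), again from limma. Those of SLC2A1 and GAPDH were lost under the alternatives given above. The 2 lines were counted on different features, 1 transcript in Hep3B and the gene in Huh7, and the part of this in the differences was not tested.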

How the results depend on the processing

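Over up to 19 alternatives per line no called gene of the set changed sign; among uncalled Hep3B genes SLC2A1 (-0.06 to 0.12), GPI (-0.20 to 0.28) and CA9 (-0.07 to 0.29) did. The number of Hep3B genes called higher stayed between 4 and 5 and lower between 4 and 7. In Huh7 it was 11 to 12 higher and 15 lower, a stability largely set in advance by the selection of its genes. Between lines 10 to 12 genes differed over 23 alternatives. In Hep3B the calls that changed were those of GAPDH, ANKRD37, PGK1 and BNIP3, which were lost, and of PGAM1, LDHA and EGLN3, which were gained. In Huh7 that of GAPDH was lost. The cause was not tested. With the replicate block Hep3B had 5 higher and 7 lower, Huh7 12 and 15, and 11 genes differed; PGAM1 gained a call (limma adjusted p = 0.0472). Deviations of same-numbered libraries correlated at 0.08, 0.39 and 0.21 in Hep3B, and those of differently numbered ones at -0.33 to 0.18. In Huh7 the values were 0.10, -0.03 and 0.18 against -0.17 to 0.08. Over all Hep3B entries the block gave 2703 calls higher and 2178 lower, against 2405 and 1912 in the main fit. Whether same-numbered libraries share a batch was not tested. The edgeR fit was not run for the difference, which needs an SE, and the deposited calls were not used for it. Why fewer Hep3B entries under 100 scaled reads were called was not tested. The Huh7 table cannot show genes outside its selection.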
